A study of Mus musculus with 2 samples.

Results

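Inhibin subunits and activin antagonists are here the subunits of secreted ligands, the follistatin family and a membrane pseudoreceptor. Genes were followed by symbol, as 7 of the 32285 genes in the deposited single-cell count matrices: the subunit genes Inhba, Inhbb and Inha, the follistatin family genes Fst, Fstl1 and Fstl3, and Bambi. All 7 were detected.

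The tumours grew in female C57BL/6 mice aged 6 to 8 weeks whose peritoneal wall had been abraded. Syngeneic ovarian cancer cells lacking p53 and carrying myc and Hras were then injected into the peritoneal cavity of every mouse, in both groups. Mice received daily injections of either control IgG (7 mice per the labels) or an Activin A neutralizing antibody (8 mice), given for 10 days, and the study's own text differs from the labels in the number of mice and of days. Tumour tissue from the abrasion site was pooled within a group, depleted of erythrocytes and dead cells, and sequenced as 1 droplet library per group. The antibody acts on the protein made from Inhba, so its target transcript was not removed by design. Each group is therefore 1 sample, no difference between groups could be tested, and every interval given here is a 95% interval that covers counting error only.

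Activins are dimers of beta subunits: Inhba encodes the beta A subunit of Activin A and Inhbb the beta B subunit of Activin B. Inha encodes the alpha subunit, which pairs with a beta subunit to form inhibins that oppose activin. Follistatin, the product of Fst, and its relative from Fstl3 bind activin outside the cell and keep it from its receptors, Fstl1 encodes a secreted relative abundant in mesenchymal cells, and Bambi encodes a membrane pseudoreceptor that dampens TGF-beta family signals. Activin is known for roles in wound repair, fibrosis and inflammation.

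Cells were kept at 1000 to 8500 detected genes, 1000 to 100000 unique molecular identifiers (UMIs, each counting 1 captured transcript) and at most 10% mitochondrial UMIs. This left 8770 cells with 80208236 UMIs in the control library and 6386 cells with 57416419 UMIs in the antibody library, and 19 cell barcodes occurred in both. Cells were placed in 14 classes by fixed marker genes, none of them a member, and 11 classes held at least 20 cells in each library. The cancer-like class (Dlk1, Hmga2, Cdkn2a, Mid1 and Lgals7) held 334 and 362 cells in the control and antibody libraries, and Krt18, a keratin not used to define it, was detected in 85.0% and 90.1% of them, while Krt8, its usual partner, was detected in 7.19% and 9.12%. Fibroblast-like cells were split into an Acta2 and Tagln myofibroblast-like class with 39 and 21 cells, a Pi16 or Car3 class with 48 and 57, and other fibroblast-like cells with 91 and 136. Mesothelial-like cells numbered 49 and 29, C1q macrophage-like cells 1190 and 315, monocyte-like cells 575 and 373, and T and NK-like cells 5464 and 4444. Levels are given as CPM, the UMIs of a gene summed over a class per 1000000 UMIs of that class. Each UMI marks a transcript end, so levels were compared between classes and libraries for a gene and not between genes.

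Promoter sequence is shown for the beta subunit genes, the ligand genes, of which Inhba and not Inhbb was detected in the myeloid classes compared. RefSeq promoters were found for 5 of the 7 members. Each run below is the 250 bases before the RefSeq start, 5′ to 3′ on the gene's strand, from GRCm38.p6, the assembly of the build used for the counts (mm10). Inhba lies at chr13:16011851-16031621 on the plus strand and its shown promoter at chr13:16011601-16011850. Inhbb lies at chr1:119415465-119422248 on the minus strand and its shown promoter at chr1:119422249-119422498. Capitals mark TATA box letters (TATAAA) that begin 91 bases before the start in Inhba. In Inhbb they mark GC box letters (GGGCGG, here on the opposite strand) that begin 122 bases before it.
Inhba: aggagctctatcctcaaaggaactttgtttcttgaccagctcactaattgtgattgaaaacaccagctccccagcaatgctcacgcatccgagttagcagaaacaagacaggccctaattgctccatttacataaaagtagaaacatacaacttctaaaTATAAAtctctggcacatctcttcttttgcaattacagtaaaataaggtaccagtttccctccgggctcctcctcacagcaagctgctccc
Inhbb: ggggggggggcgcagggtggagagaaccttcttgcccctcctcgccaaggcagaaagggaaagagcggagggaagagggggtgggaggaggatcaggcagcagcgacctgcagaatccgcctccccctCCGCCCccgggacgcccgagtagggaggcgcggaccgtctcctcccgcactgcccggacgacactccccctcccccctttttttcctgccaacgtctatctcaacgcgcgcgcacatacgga
The Inhba run contained 43.2% G and C bases, the Inhbb run 68.0%, and the median over all promoters was 52.0%. The TATA box letters, searched on both strands of the 250 bases, occurred in 12.97% of 27025 promoters and the GC box letters in 32.9%. Neither run held the AP-1 letters (TGACTCA or TGAGTCA, 4.43% of promoters), the CRE letters (TGACGTCA, 1.62%) or the paired SMAD box GTCTAGAC (0.174%). Each match describes letters only.

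Inhba UMIs came mostly from cancer-like cells in both libraries, and the fibroblasts that carried the gene were those with Acta2 and Tagln. Cancer-like cells held 80.5% of all Inhba UMIs of the control library (interval 78.6% to 82.3%) and 83.9% of those of the antibody library (82.4% to 85.4%). For all genes together, they held 18898394 of 80208236 kept UMIs in the control library and 19683128 of 57416419 in the antibody library. Their level was 78.0 CPM in the control library and 104 in the antibody library, from 1474 and 2044 UMIs. In the control library the myofibroblast-like cells were higher still, at 99.1 CPM from 115 UMIs. The log2 ratio of cancer-like over myofibroblast-like cells was -0.35 there (-0.62 to -0.06). In the antibody library the order was the other way: myofibroblast-like cells stood at 41.1 CPM from 24 UMIs, and the log2 ratio was 1.34 (0.76 to 1.98). When classes were taken from Leiden clusters in place of gates, the control value of that ratio changed sign, to 0.20.

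Myofibroblast-like cells exceeded other fibroblast-like cells in Inhba by 10.2-fold in the control library and by 5.82-fold in the antibody library. Other fibroblast-like cells had 9.74 and 7.06 CPM, from 11 UMIs in each library. Pi16 or Car3 fibroblast-like cells held 1 and 3 Inhba UMIs. Mesothelial-like cells, the lining cells of the peritoneum, had 13.6 and 24.95 CPM. In the antibody library 14 of their 24 UMIs sat in 1 cell, and without the cell with most Inhba UMIs in each library their log2 ratio of antibody over control went from 0.88 to -0.07.

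Among myeloid cells, Inhba was detected in C1q macrophage-like and monocyte-like cells at levels well above those of lymphocytes. C1q macrophage-like cells had 6.39 CPM in the control library and 32.2 in the antibody library, from 61 and 64 UMIs. Monocyte-like cells had 6.56 and 16.2, from 26 and 36 UMIs. Neutrophil-like cells, too few in the control library to compare, had 17.3 and 30.3, from 1 and 11 UMIs, 6 of the latter in 1 cell. T and NK-like cells, which serve as the background, had 0.40 and 0.50, and dendritic-like cells held 1 UMI in each library. The macrophage-like level was 15.9-fold that of T and NK-like cells in the control library and 64.2-fold in the antibody library. Free RNA, taken from barcodes under 100 UMIs, contained Inhba at 12.6 CPM in the control library and 35.1 in the antibody library, a difference in the same direction as that of the macrophage-like cells. Its part in that difference was not tested.

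Few macrophage-like cells carried the gene. An Inhba UMI was found in 37 of 1190 cells of the control library (3.11%) and in 26 of 315 cells of the antibody library (8.25%). The corresponding shares in T and NK-like cells were 0.220% and 0.225%, at median depths of 4796 and 4161 UMIs per cell against 7578 and 5801 in the macrophage-like cells. After thinning each cell to 2000 UMIs the macrophage-like shares were 1.05% and 4.85%. In the antibody library 6 macrophage-like cells with 3 or more UMIs held 38 of the 64, and in the control library 3 such cells held 21 of the 61. The Inhba-positive macrophage-like cells together held 1 UMI of Dlk1 and Krt18, the cancer-like markers, in the control library and 2 in the antibody library. Arg1, an arginase gene of alternatively activated macrophages, stood at 4798 and 3950 CPM in the Inhba-positive cells and at 3647 and 3026 in the others. C1qa, a marker of the class, was lower in the Inhba-positive cells, at 2916 against 3357 in the control library and at 1148 against 2315 in the antibody library. Ly6c2, a gene of inflammatory monocytes, stood at 170 against 111 and at 116 against 89.3. S100a8, a neutrophil marker, stood at 21.3 against 20.2 and at 12.2 against 14.2. Among monocyte-like cells Ly6c2 was lower in the Inhba-positive ones, at 169 against 406 and at 478 against 494. These marker levels rest on few Inhba-positive cells and carry no interval.

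Inhbb had partly the same sources as Inhba and partly different ones. Cancer-like cells held 78.5% and 82.7% of its UMIs, at 13.5 and 20.6 CPM from 256 and 406 UMIs. Per class, however, myofibroblast-like cells had 19.0 and 27.4 CPM and Pi16 or Car3 fibroblast-like cells 24.3 and 13.3, in each case from 22 or fewer UMIs. The intervals of cancer-like over myofibroblast-like cells contained no difference in either library, with log2 ratios of -0.48 (-1.11 to 0.21) and -0.41 (-1.13 to 0.41). In the myofibroblast-like class 1 cell held 14 of the 22 control UMIs and 1 cell held 10 of the 16 antibody UMIs. Without the cell with most Inhbb UMIs in each class and library, myofibroblast-like cells stood at 6.98 and 11.0 CPM, below cancer-like cells at 13.1 and 19.9. No Inhbb UMI was found in the 2011 myeloid cells of the control library or in the 878 of the antibody library. The intervals of these levels reach up to 0.24 and 0.61 CPM. Inhba stood at 5.80 and 18.5 CPM in the same cells. The promoters printed above belong to these beta subunit genes.

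Inha came mostly from cancer-like cells. They held 83.2% of its 161 UMIs in the control library and 81.6% of its 98 UMIs in the antibody library. Their levels were 7.09 and 4.06 CPM. Pi16 or Car3 fibroblast-like cells, the next class, had 5.60 and 3.81 CPM from 3 and 2 UMIs. The log2 ratio of cancer-like cells over that class was 0.34 (-1.24 to 2.64) in the control library. It was 0.09 (-1.81 to 3.16) in the antibody library. Other fibroblast-like cells had 2.66 and 4.50 CPM from 3 and 7 UMIs, so that the log2 ratio of cancer-like over other fibroblast-like cells was 1.42 (-0.16 to 3.71) in the control library and -0.15 (-1.25 to 1.21) in the antibody library. Monocyte-like and dendritic-like cells held none.

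Detection of more than 1 subunit gene in the same cell was read in cancer-like cells. Inhbb was found at a higher share in Inhba-positive cells, though most Inhba-positive cells held no Inhbb UMI. In the cancer-like class, Inhba and Inhbb were detected together in 24.6% of control cells and 34.3% of antibody cells. Inhbb was found in 34.7% of Inhba-positive and 23.5% of Inhba-negative control cells, and in 45.9% and 26.1% of those of the antibody library. Inha was found at nearly equal shares in both kinds of cell, at 19.5% and 16.3% in the control library and at 16.7% and 17.4% in the antibody library. Cells with more UMIs show more genes, so these shares describe the libraries at their depth, a median of 57490 and 55235 UMIs per cancer-like cell.

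**Figure D1:**
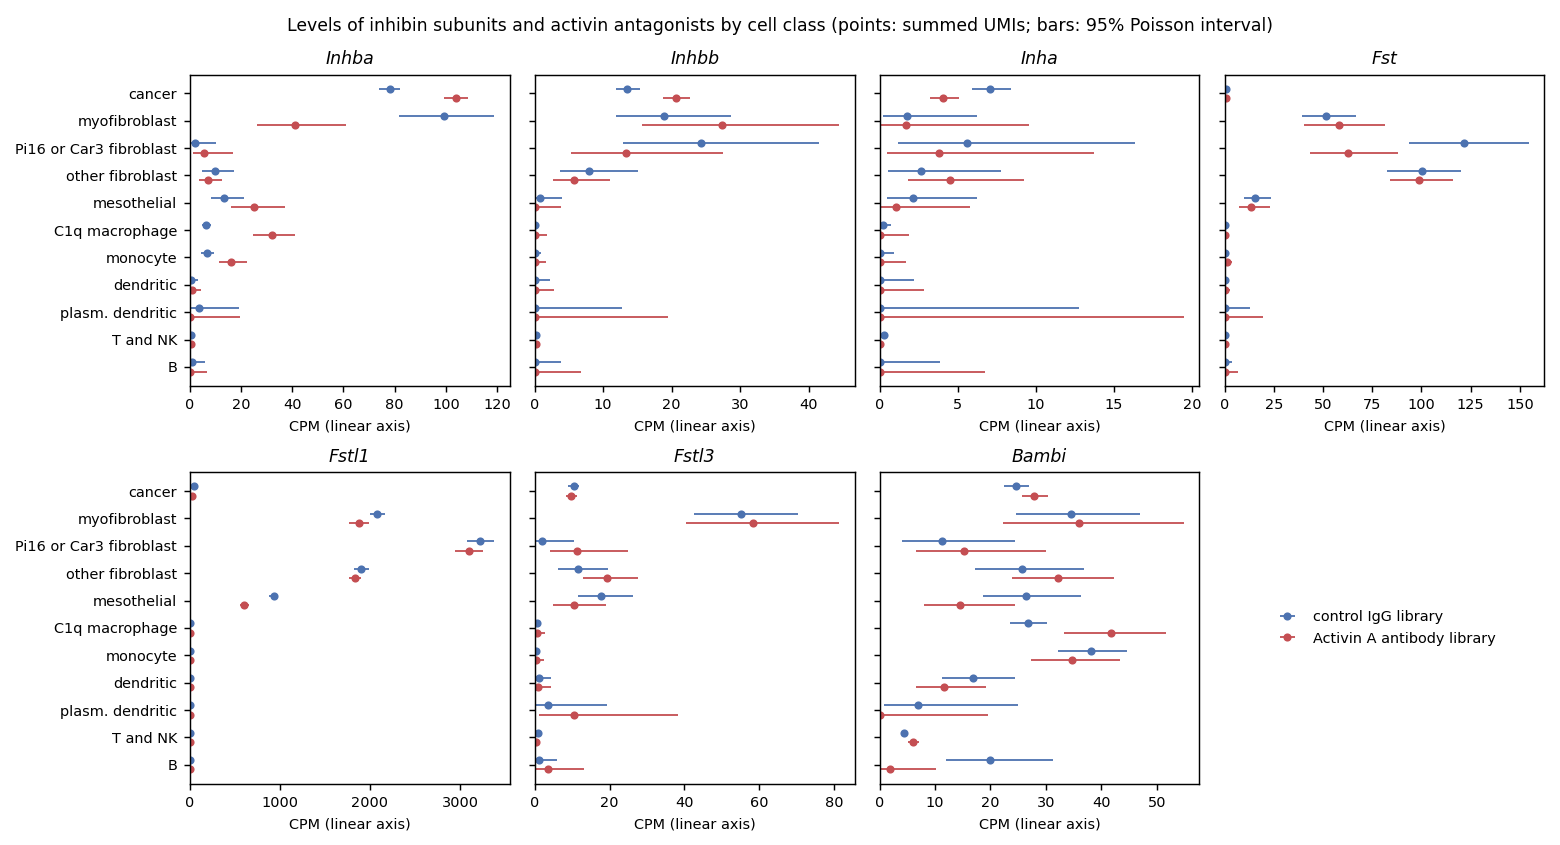
Level of each of the 7 genes (horizontal linear axis, CPM) in the 11 cell classes (vertical axis) for the control IgG library (blue) and the Activin A antibody library (red). Points are summed UMIs and bars are 95% Poisson intervals. Inhba was high in cancer-like and myofibroblast-like cells, Fst and Fstl1 in fibroblast-like cells and Fstl3 in myofibroblast-like cells. Bambi was spread over cancer-like, stromal and myeloid classes and was low in T and NK-like cells.

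The follistatin genes had their highest levels in stromal classes, while cancer-like cells held most Fstl3 UMIs. Fst was carried by fibroblast-like cells and was close to absent from cancer-like cells. Other fibroblast-like cells had 100.1 and 98.9 CPM in the control and antibody libraries, from 113 and 154 UMIs. Pi16 or Car3 fibroblast-like cells had 121 and 62.8, and myofibroblast-like cells had 51.7 and 58.2, where 23 of 60 control UMIs sat in 1 cell. Mesothelial-like cells had 15.7 and 13.5, and cancer-like cells 0.79 and 0.61, from 15 and 12 UMIs. Other fibroblast-like cells thus exceeded cancer-like cells 126-fold in the control library and 162-fold in the antibody library. Stromal classes held 76.0% of Fst UMIs in the control library (71.1% to 80.5%) and 86.7% in the antibody library (82.0% to 90.5%). In the control library a further 18.1% sat in cells that passed the gates of more than 1 lineage.

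The fibroblast classes richest in Fst were not the one richest in Inhba. Other fibroblast-like cells exceeded myofibroblast-like cells in Fst by 0.95 on the log2 scale in the control library (0.49 to 1.43) and by 0.76 in the antibody library (0.22 to 1.35), the reverse of the order for Inhba. Within the myofibroblast-like class the genes did occur in the same cells. Of 27 Inhba-positive control cells 11 also held an Fst UMI, as did 4 of the 12 others, and of 9 Inhba-positive antibody cells 7 did, as did 4 of the 12 others.

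Fstl1 was the broadest stromal member. Its level was 3225 and 3096 CPM in Pi16 or Car3 fibroblast-like cells, 2079 and 1878 in myofibroblast-like cells and 1906 and 1835 in other fibroblast-like cells. Mesothelial-like cells had 932 and 606, and cancer-like cells 44.8 and 26.0. At least 1 Fstl1 UMI was detected in every myofibroblast-like cell of both libraries. C1q macrophage-like cells had 2.93 and 3.02 and T and NK-like cells 2.20 and 2.38, against 61.5 and 92.1 in free RNA. The order of the fibroblast classes depended on the gates: with 1 more marker required the control log2 ratio of Pi16 or Car3 over myofibroblast-like cells went from 0.63 to -0.60.

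Fstl3, unlike Fst, was highest in the Acta2 and Tagln class. Myofibroblast-like cells had 55.1 and 58.2 CPM, from 64 and 34 UMIs, and other fibroblast-like cells 11.5 and 19.3. The log2 ratio between these classes was 2.26 (1.38 to 3.24) in the control library and 1.60 (0.84 to 2.35) in the antibody library. Mesothelial-like cells had 17.8 and 10.4 CPM and cancer-like cells 10.4 and 9.75. Because cancer-like cells were more numerous and deeper, they still held 51.4% and 61.0% of all Fstl3 UMIs. Pi16 or Car3 fibroblast-like cells, the class richest in Fstl1, held 1 and 6 UMIs of Fstl3.

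**Figure D2:**
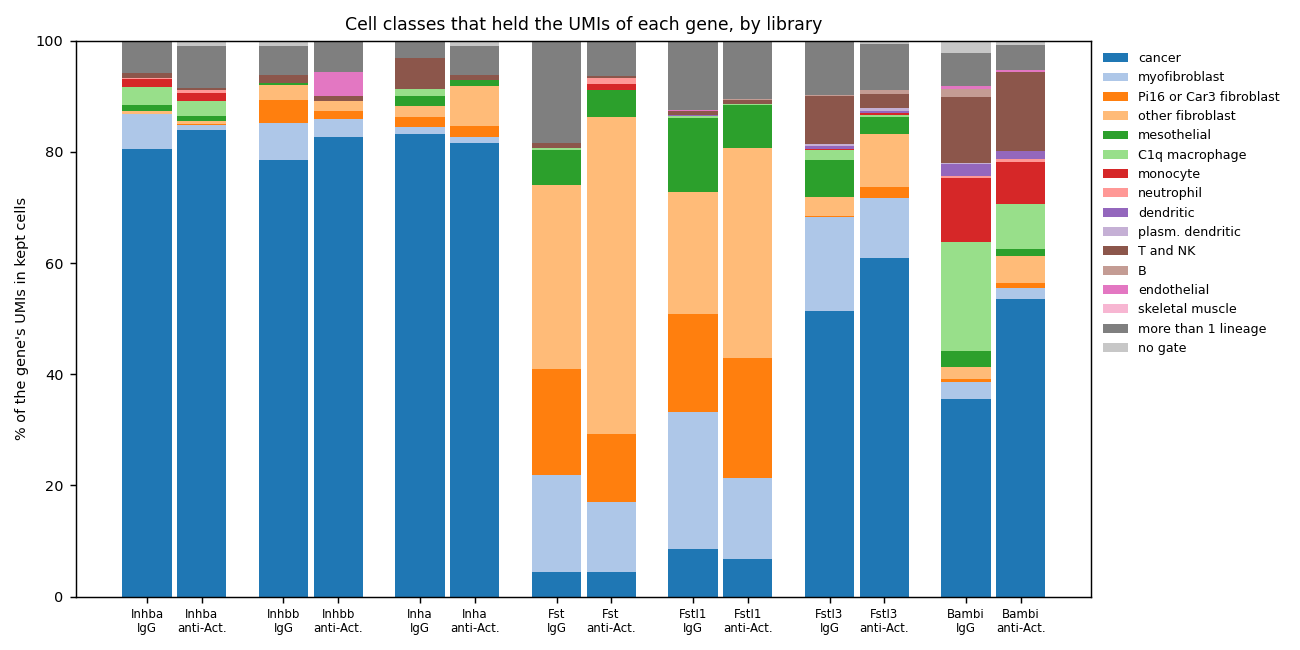
Share of each gene's UMIs (vertical axis, percent of UMIs in kept cells) held by each class, with 1 bar for the control IgG library (IgG) and 1 for the Activin A antibody library (anti-Act.). Cancer-like cells held 80.5% and 83.9% of Inhba UMIs but 4.39% and 4.44% of Fst UMIs, and Bambi was spread over cancer-like, myeloid and lymphoid classes.

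Bambi was the member shared by cancer-like, stromal and myeloid cells. Monocyte-like cells had 38.1 and 34.7 CPM from 151 and 77 UMIs, and C1q macrophage-like cells 26.7 and 41.7 from 255 and 83 UMIs. Myofibroblast-like cells had 34.5 and 36.0, other fibroblast-like cells 25.7 and 32.1 and cancer-like cells 24.6 and 27.9. The leading classes did not separate: monocyte-like over myofibroblast-like cells gave a log2 ratio of 0.14 (-0.37 to 0.68) in the control library and -0.05 (-0.76 to 0.72) in the antibody library. Dendritic-like cells had 16.9 and 11.6, and T and NK-like cells 4.44 and 6.06. C1q macrophage-like cells exceeded T and NK-like cells 6.02-fold and 6.89-fold. Cancer-like cells held 35.6% of Bambi UMIs in the control library and 53.5% in the antibody library, and myeloid classes 33.8% and 17.6%, while the number of C1q macrophage-like cells was 1190 and 315. The part of all kept UMIs held by cancer-like cells was also larger in the antibody library, at 19683128 of 57416419 against 18898394 of 80208236.

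Read over both libraries together, 2 of the 7 members were highest in cancer-like cells (Inhba and Inha), 4 in a fibroblast class (Inhbb in myofibroblast-like, Fst in other, Fstl1 in Pi16 or Car3 and Fstl3 in myofibroblast-like cells) and 1 in monocyte-like cells (Bambi). Without the cell with most UMIs in each class and library, Inhbb was highest in cancer-like cells and the other 6 members in the classes named. For Inha, Inhbb and Bambi the intervals of the highest class over the next included no difference in either library. Of 13164 genes with at least 20 UMIs in their highest class, 38.7% were highest in cancer-like cells or any of the 3 fibroblast classes, 18.7% in the fibroblast classes alone and 5.02% in monocyte-like cells.

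Between the libraries, Inhba was the only member past 2-fold in more than 1 class, and its differences were divided in direction. It was lower with the antibody in myofibroblast-like cells and higher in C1q macrophage-like and monocyte-like cells, while in cancer-like cells it was higher by less than 2-fold. A gene was counted here when its levels differed at least 2-fold in a class, and members were read where at least 20 UMIs were found over both libraries. Of 37 such ratios of members in the 11 classes, 2 were at least 2-fold higher with the antibody, 3 at least 2-fold lower and 32 lay within 2-fold. Among all genes read, the shares by class ran from 1.63% to 4.98% higher and from 1.49% to 4.36% lower. Members were not read in equal numbers of classes: Inhba was read in more than Inhbb, and Inha in cancer-like cells alone.

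In myofibroblast-like cells the log2 ratio of antibody over control for Inhba was -1.27 (-1.97 to -0.63), and it was the only member of 6 read in that class past 2-fold. Among all 8059 genes read there, 3.59% were at least 2-fold lower and 4.98% at least 2-fold higher. An Inhba UMI was found in 27 of 39 control cells (69.2%) and 9 of 21 antibody cells (42.9%). The log2 ratio of these shares was -0.69, with an interval that included no difference (-1.97 to 0.44). That interval treats positive cells as counts without an upper bound and is too wide for shares this high, so it cannot decide the question. Ptprc, the leukocyte marker CD45, stood at 22.4 and 0 CPM in this class and Krt18 at 12.9 and 3.42, and their part in the ratio was not tested. Myl9, Cnn1 and Tpm2, myofibroblast markers not used in the gate, stood at 181, 48.2 and 1035 CPM in the control library. In the antibody library they stood at 56.5, 0 and 510. The collagen genes Col1a1 and Col3a1 were closer, at 11282.5 and 11056 and at 13277 and 12506. Whether the cells of the class were of the same kind in both libraries was not tested. The class made up 39 of 178 fibroblast-like cells in the control library and 21 of 214 in the antibody library. Acta2 and Tagln, which define it, encode alpha smooth muscle actin and transgelin. Over all fibroblast-like cells together, and not within the class, they had log2 ratios of -2.52 and -3.02. Over the same cells Inhba stood at 45.0 and 14.3 CPM, a log2 ratio of -1.66 (-2.22 to -1.12). Fst, Fstl1, Fstl3 and Bambi of the joined fibroblast-like cells had log2 ratios of -0.02, -0.09, -0.07 and 0.16.

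Fibroblast-like cells were therefore also read by their own Acta2 and Tagln content. Cells with 20 or more Acta2 and Tagln UMIs per 10000 made up 11.8% of fibroblast-like cells in the control library and 2.34% in the antibody library, 21 and 5 cells. Inhba was higher at higher content in both libraries. It went from 0.86 CPM in control cells with none, over 22.9 and 33.2 in the intermediate bins, to 136 in the highest, and in the antibody library from 3.41 over 14.6 and 21.6 to 99.0. Within the highest bin the log2 ratio of antibody over control was -0.46 (-1.38 to 0.36) and within the bin below -0.62 (-1.85 to 0.54). These intervals are wide and include no difference, and they also include a change of the size seen for the whole class. Acta2 itself still differed within the highest bin, at 3955 and 1782 CPM. In sums over a class, fewer Inhba-rich cells and less Inhba per cell cannot be told apart.

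Fst gave another profile over the same bins, while Fstl3, like Inhba, was higher at higher content in both libraries. Fst was highest in control cells with no Acta2 or Tagln, at 133 CPM against 102 in the antibody library, and stood at 20.3 and 33.3 in cells with 2.5 to under 20 per 10000. In the highest bin it stood at 69.9 in the control library and at 170 in the antibody library, the latter from 24 UMIs in 5 cells. Fstl3 went from 4.31 CPM in control cells with none, over 17.8 and 38.7, to 61.7 in the highest bin. Its antibody values went from 14.99 over 18.3 and 54.9 to 70.7. Inhbb stood at 20.6 and 77.8 in the highest bin, from 15 and 11 UMIs that sat in 2 cells of each library.

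**Figure D3:**
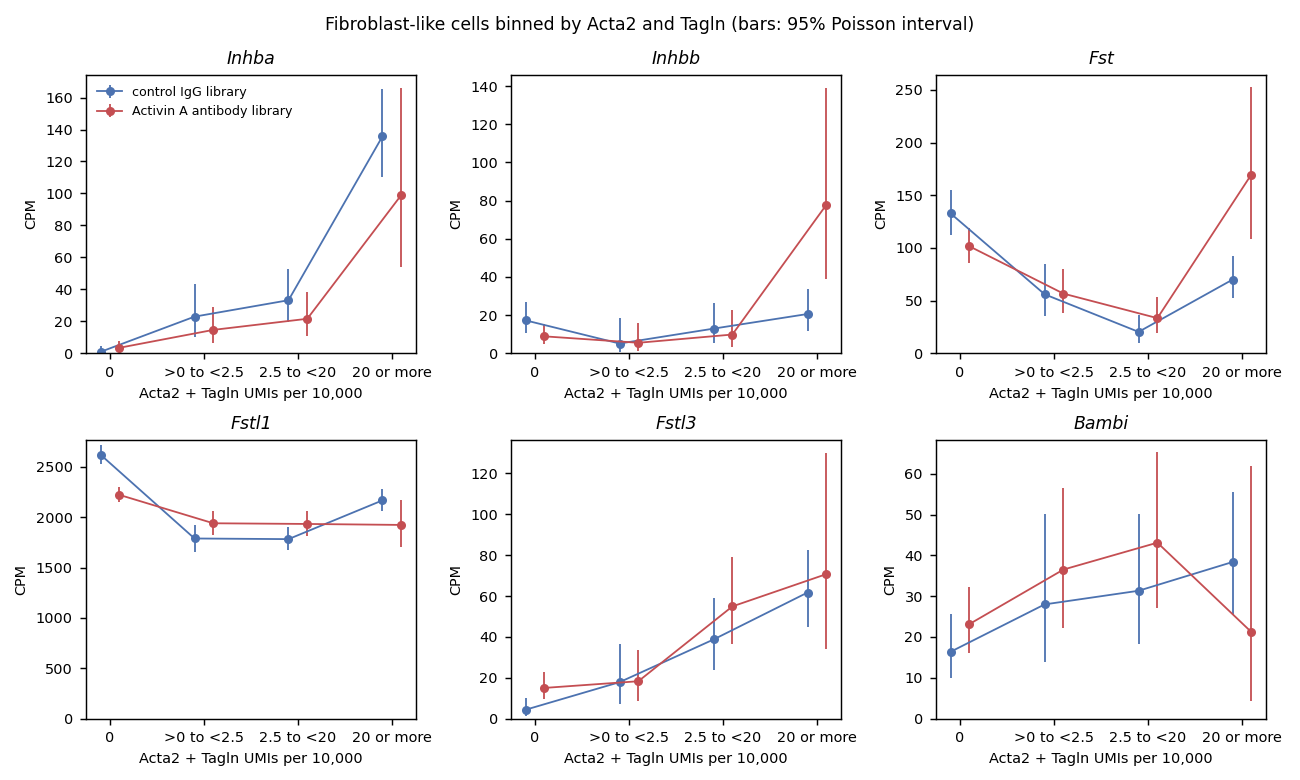
Levels of 6 members (vertical axes, CPM) in fibroblast-like cells binned by their summed Acta2 and Tagln UMIs per 10000 (horizontal axes), in the control IgG library (blue) and the Activin A antibody library (red), with 95% Poisson intervals. Inhba and Fstl3 were highest in the top bin, Fst was lowest in the bin of 2.5 to under 20, and the top bin of the antibody library holds 5 cells.

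In C1q macrophage-like cells the log2 ratio for Inhba was 2.33 (1.80 to 2.86), a 5.04-fold difference, and 1 of 3 members read there was past 2-fold. Of 11325 genes, 3.52% were at least 2-fold higher and 2.44% lower. The ratio of the shares of positive cells was smaller, at 1.41 on the log2 scale (0.63 to 2.17), and without the cell with most Inhba UMIs in each library the level ratio was 2.41. In monocyte-like cells the ratio was 1.31 (0.54 to 2.09) and that of the shares 0.97 (-0.09 to 2.05), in a class where 1.66% of genes were at least 2-fold higher and 2.70% lower. With Leiden clusters, which placed 96 and 110 cells in the monocyte-like class in place of 575 and 373, the ratio was 2.93. Bambi differed less in the macrophage-like cells, with a log2 ratio of 0.64 (0.27 to 1.01), and its share of positive cells was 13.9% and 15.2%. In dendritic-like cells, where 2.48% of genes were at least 2-fold higher and 2.40% lower, Bambi was the 1 member read, at -0.54 (-1.55 to 0.42). C1q macrophage-like cells also differed in number between the libraries, at 13.6% and 4.93% of kept cells, and haemoglobin UMIs stood at 0.52 and 339 CPM in them. Whether either bears on the Inhba level was not tested.

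Cancer-like cells, read at 7 members, held none past 2-fold, where 1.89% of 13991 genes were at least 2-fold higher and 2.84% lower. Their log2 ratio of antibody over control was 0.41 for Inhba (0.32 to 0.51) and 0.61 for Inhbb (0.38 to 0.84). The shares of Inhba-positive cells were 70.7% and 74.6%, and those of Inhbb-positive cells 31.4% and 40.9%. Fstl1 had a log2 ratio of -0.78 (-0.95 to -0.62), with 59.6% and 39.8% of cells positive. Inha had a log2 ratio of -0.80 (-1.22 to -0.39), but 42 of its 134 control UMIs came from 1 cell, and without the highest cell of each library the ratio was -0.39. Fstl3 and Bambi had ratios of -0.09 (-0.38 to 0.21) and 0.18 (0.00 to 0.37).

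Other ratios concerned the antagonists. In Pi16 or Car3 fibroblast-like cells Fst had a log2 ratio of -0.95 (-1.60 to -0.32), and none of 3 members read was past 2-fold, against 4.08% of genes higher and 3.89% lower. In other fibroblast-like cells Fst stood at -0.02 (-0.38 to 0.35), with none of 5 members past 2-fold, against 3.55% higher and 3.24% lower. Mesothelial-like cells had less Fstl1 in the antibody library, at -0.62, and none of 5 members was past 2-fold, against 3.31% higher and 4.36% lower. The remaining calls rested on few UMIs. Fstl3 in T and NK-like cells was -1.50 (-2.82 to -0.36), from 33 and 8 single UMIs at 0.94 and 0.33 CPM, below its level in free RNA (2.87 and 3.03), in a class where 1.63% of genes were higher and 1.49% lower. Bambi in B-like cells was -3.45 (-8.83 to -0.80), from 19 and 1 UMIs, against 3.75% higher and 2.22% lower.

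**Figure D4:**
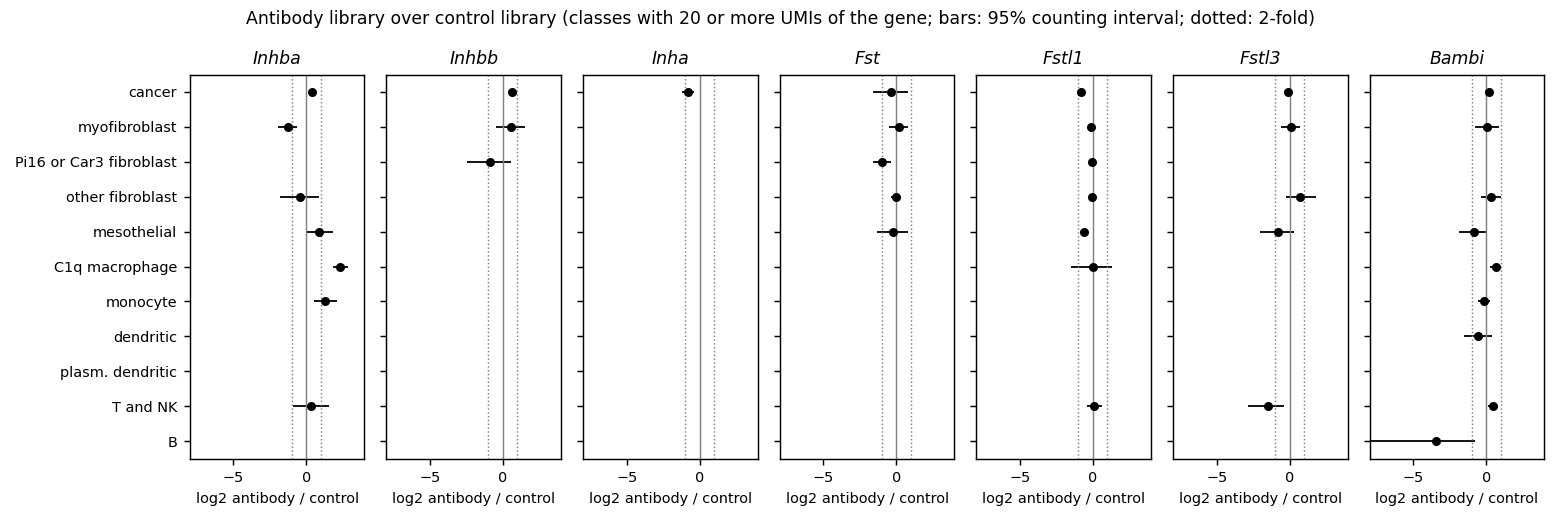
log2 ratio of the antibody library over the control library (horizontal axes) for each member in each class with 20 or more UMIs (vertical axis), with 95% counting intervals and dotted lines at 2-fold (the interval of Bambi in B-like cells runs off the axis, to -8.83). Inhba was at -1.27 in myofibroblast-like cells and at 2.33 and 1.31 in C1q macrophage-like and monocyte-like cells, and 32 of the 37 ratios lay between the dotted lines.

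The rest of the pathway was read from a list of 47 genes. Of the other ligand genes, Inhbc held 25 UMIs over all kept cells and Inhbe, Nodal and Mstn, the gene of myostatin, 6 or fewer. Gdf11 held 802 UMIs, with 5.93 and 5.33 CPM in cancer-like cells and its highest level in B-like cells, and Gdf3 was carried by C1q macrophage-like cells (101 of 129 UMIs). The convertase genes Pcsk5 and Pcsk6, whose products cleave TGF-beta family precursors, were highest in Pi16 or Car3 fibroblast-like cells, at 307 and 290 CPM over both libraries. Among receptors, Acvr2a, a type II activin receptor, was highest in monocyte-like cells at 84.0 CPM and Acvr1b, a type I receptor, in mesothelial-like cells at 38.5. Noggin (Nog) and Grem1, antagonists of bone morphogenetic proteins, held 14 and 90 UMIs in all.

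By library, 1 of 26 list genes read in myofibroblast-like cells was at least 2-fold higher and 4 lower, against 4.98% and 3.59% of all genes. Pcsk5 was higher, at 6.89 and 94.2 CPM, and Ccn2 (connective tissue growth factor, a TGF-beta family target) was lower at 816 and 392, as was Ltbp2, which encodes a matrix protein, at 156 and 54.8. Smad6, an inhibitory SMAD, was also lower, with 26 and 5 UMIs. In mesothelial-like cells 1 of 27 was higher and 4 lower, against 3.31% and 4.36% of all genes. Ccn2 was at 64.9 and 16.6 CPM there, Ltbp2 at 109.9 and 47.8, and Pmepa1, a target that restrains SMAD signalling, at 341 and 152, while the higher gene was Cdkn1a, a cell cycle inhibitor, at 41.4 and 121. In Pi16 or Car3 fibroblast-like cells 3 of 26 were higher and none lower, against 4.08% and 3.89% of all genes. Ccn2 was among the higher there, at 57.9 and 133, with Smad7 and Skil. In cancer-like cells 1 of 29 was higher (Pcsk6, 3.02 and 6.76 CPM) and 2 lower (Smad6, 6.83 and 2.79, and Ltbp2 with 20 and 1 UMIs). Of all genes there, 1.89% were higher and 2.84% lower. In C1q macrophage-like cells Pmepa1 was lower, at 93.3 and 45.3, with none of 22 higher, against 2.44% of all genes lower and 3.52% higher. In other fibroblast-like cells 1 of 29 was higher (Chrdl1, a bone morphogenetic protein antagonist, 6.20 and 17.3 CPM) and 1 lower (Ltbp2, 62.0 and 30.2). Of all genes in that class, 3.55% were higher and 3.24% lower. In plasmacytoid dendritic-like cells, where no member was read and 3.11% of genes were higher and 3.99% lower, 2 of 10 list genes were lower, the receptor genes Acvr2a (30 and 5 UMIs) and Bmpr2 (21 and 6). In T and NK-like cells 1 of 24 was lower, Ccn2 with 23 and 6 UMIs, against 1.49% of all genes lower and 1.63% higher. No list gene was past 2-fold in dendritic-like cells (of 17) or B-like cells (of 14). Of all genes, 2.48% were higher and 2.40% lower in the former, and 3.75% and 2.22% in the latter. In monocyte-like cells none of 19 was higher and 1 was lower, against 1.66% and 2.70% of all genes. The median log2 ratio of the list was -0.09 in cancer-like cells and 0.05 in myofibroblast-like cells, against -0.06 and 0.05 over all genes.

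Profiles over the 22 sums of class and library were also compared, by Pearson correlation on log2(CPM + 1) over 14732 genes. The points share libraries and depth, so these values are descriptions. Inhba was closest to Igf2bp2 (r = 0.89), Siva1 (0.89) and Nme2 (0.86), and among members to Bambi (0.71). Inhbb was closest to Fbn2 (0.97), Inha to Ramp2 (0.97), Fstl3 to Daam2 (0.93) and Bambi to Tgfbi (0.93). Fst was closest to Gpr153 and Fstl1 to Col3a1, a fibrillar collagen gene, both at 0.99, and Fst and Fstl1 were at 0.96 with each other. Fst and Inhba were at 0.35.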

How the data were processed

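Tumour tissue was pooled within each group and made into 1 droplet library per group (10x Genomics 3′ chemistry). The authors aligned the reads and counted UMIs with Cell Ranger, version 7.0.1 per the processing notes and 4 per the file headers, on mm10, and deposited raw UMI counts for all barcodes, not normalized. Library totals were 98174850 and 74117462 UMIs, of which 6.39% and 6.23% lay in barcodes under 100 UMIs.

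Cells were gated in Python 3.11.15 (numpy 2.4.6, pandas 2.3.3, scipy 1.17.1) with gates on detected markers and UMIs per 10000: mostly 5, with 2.5 for Acta2 and Tagln (both detected), 30 for fibroblast, 50 for neutrophil and 100 for skeletal muscle markers. The level for Acta2 and Tagln was set so that both libraries held at least 20 cells. Cells of more than 1 lineage (283 and 128), which include doublets, were set aside, and 204 and 185 cells passed no gate. Members, lists and gates were chosen with earlier results of these data known.

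Levels carry exact Poisson intervals, shares exact Clopper-Pearson intervals and ratios conditional binomial intervals (95%). UMIs remove amplification duplicates, but these intervals treat each UMI as an independent draw and leave out variation between cells. They also leave out variation between mice, which 1 pooled library per group cannot give. No test between groups was run. Genes past 2-fold were counted with 0.5 UMIs added, at 20 or more UMIs over both libraries. The ratio and its interval were tested on simulated data. These counts were drawn from the Poisson model that the interval assumes, so they could not show the effect of UMIs gathered in single cells. Named genes are all 7 members, up to 3 list genes per class and direction past 2-fold, the sources of other list genes, chosen after their values were seen, and the closest genes by correlation. Alternatives covered cell limits, gates, Leiden clusters (scanpy 1.11.5), TMM (edgeR 4.0.16), averaging, free RNA, deep cells and, added after seeing the data, the cell with most UMIs. Gene positions are from GENCODE M21 on GRCm38, and promoters from RefSeq. Fst and Bambi promoters were not analysed here. Results for some genes of the pathway list are not reported here.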

Additional observations from a re-analysis of the deposited data

Results flagged for a closer look

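Inhba differed in opposite directions between classes under the same comparison of libraries: the log2 ratio of antibody over control was 2.33 in C1q macrophage-like cells and 1.31 in monocyte-like cells, and -1.27 in Acta2 and Tagln myofibroblast-like cells. The difference between these classes was not tested, since each group is 1 library.

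In classes too small to compare, 21 Inhbb UMIs were found in endothelial-like cells of the antibody library, all in 1 of 2 cells, against none in 8 control cells. Cells of no gate held 24 Inhba UMIs in the antibody library, 18 of them in 1 cell, against 3 in the control library.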

How the results depend on the processing

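No paired analysis was possible because the labels give only 1 pooled library for either treatment, and for the same reason no replicate could be left out. Of 219 ratios computed under alternatives, 198 kept the direction and 197 stayed within the counting interval of the reported value. Log2 ratios of antibody over control outside it were 0.29 for Inhba and -0.31 for Inha with the mean over cells, -0.39 for Fst, 0.077 for Fstl1 and -0.60 for Bambi with Leiden clusters, and -0.23 for Fstl1 without the deepest cells, each in its highest class, and 2.93 for Inhba in monocyte-like cells with Leiden clusters. For the highest class over the next, Leiden clusters gave 0.20 (Inhba), -1.58 (Inhbb), 1.16 (Fstl1) and -0.56 (Bambi) in the control library and -0.23 (Fst), 1.60 (Fstl1) and -1.28 (Bambi) in the antibody library. For Fstl1 that ratio was -0.60 with 1 more marker, 0.48 with TMM, 0.49 with the mean over cells and 0.75 without the deepest cells in the control library, and 0.39 and 0.57 with the last 2 in the antibody library. Without the cell with most UMIs of the gene, an alternative chosen after seeing the data, it was -1.45 for Inhbb in the control library and 0.61 for Fstl1 in the antibody library. Leiden clusters group other cells than the gates, and the cause of the other shifts was not tested. The Inhba ratio in myofibroblast-like cells ranged from -1.46 to -0.70 over 10 alternatives, in monocyte-like cells from 1.08 to 2.93 over 9 and in C1q macrophage-like cells from 1.90 to 2.84 over 8. Subtracting free RNA gave no value in the last, because haemoglobin UMIs in the antibody library exceeded those that free RNA could give. That alternative took the free share from haemoglobin UMIs alone. No such UMI was found in Pi16 or Car3, other fibroblast-like and mesothelial-like cells or in control myofibroblast-like cells, so nothing was subtracted there. Ratios between such classes are counted among the 219 but do not probe free RNA. Counts of genes past 2-fold depended on the UMI minimum. With at least 5 UMIs they were 718 higher and 1025 lower (264 and 398 reported) in cancer-like cells, 1024 and 804 (401 and 289) in myofibroblast-like cells, 1024 and 897 (399 and 276) in C1q macrophage-like cells and 595 and 830 (174 and 283) in monocyte-like cells. With no minimum they were 2161 and 2573, 2088 and 1470, 2272 and 897, and 1716 and 1497. A lower minimum admits more genes with few UMIs. For such genes the added 0.5 UMIs and the unequal depth of the libraries limit which calls can occur. In C1q macrophage-like cells, with 9550790 and 1988765 UMIs, no gene with under 5 UMIs could be called lower. The count of 897 lower was therefore the same at both settings. Depth limits the rarest values most: members with under 20 UMIs in a class were not compared there between libraries.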
